A study of Mus musculus with 6 samples.

Results

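Integrin and laminin chains were measured in lung tissue from 6 BALB/c mice, all male and 10 weeks old. The control group of 3 mice was kept in normal air, and the hydrogen group of 3 mice was kept for 3 weeks in a mixture of 2% hydrogen gas and 98% air. The labels name no allele, transgene or further agent in either group, and each mouse was measured on its own array. The members are all probe sets that the platform annotation assigns to exactly 1 gene symbol of the integrin alpha, integrin beta or laminin families. This rule took 59 of 45037 probe sets, which measure 31 of 17097 genes: 16 integrin alpha chains, 7 integrin beta chains and 8 laminin chains. Itgad, Itga11, Itgb8, Lama4 and Lama5 have no probe set that this annotation assigns to them alone, and were not analysed here.

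Laminins are secreted heterotrimers of 1 alpha, 1 beta and 1 gamma chain that polymerise into the sheet on which basement membranes are built. Integrins are transmembrane receptors, each a pair of 1 alpha and 1 beta chain, that bind laminins, collagens, fibronectin or counter-receptors on other cells and connect them to actin through talin, kindlin and their partners. In the lung, thin basement membranes shared by alveolar epithelium and capillary endothelium carry gas exchange, while leukocyte integrins hold and move immune cells. A gene with several probe sets was represented by the one with the highest mean over all arrays. A gene was called at an adjusted p under 0.05 in limma, with Benjamini-Hochberg adjustment over all probe sets. Fold changes below are differences of log2 values, hydrogen minus control.

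The tissue label was checked against lung markers: the measured alveolar type 2 markers had a median brightness percentile of 99.6 among all probe sets and the alveolar type 1 markers one of 98.7. Differences between the groups were widespread, with 51.4% of all genes past the threshold (25.5% higher and 25.9% lower), and 61.0% of genes had groups without overlap. The direction followed brightness: in the dim range, up to the median probe set, 41.0% of genes rose and 5.28% fell, whereas 16.4% of brighter genes rose and 37.9% fell. After cyclic loess, which levels such a trend, 20.5% of all genes were higher and 16.1% lower. Whole arrays differed by group in the deposited values, with medians of 4.75 to 4.76 in controls and 4.84 to 4.85 in hydrogen mice. The SDs over probe sets were 1.904 to 1.918 in controls and 1.80 to 1.811 in hydrogen mice. Arrays correlated at 0.9957 to 0.997 within groups and at 0.9797 to 0.9879 between groups. The cause of this difference was not tested. The labels name no batch. With 3 mice a group, an exact permutation test cannot give a two-sided p below 0.1. The labels do not tell whether the mice shared cages or litters, and precision is limited by the 3 arrays of each group.

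The laminin gamma 1 and beta 1 chains fell in the hydrogen group, while most integrin chains did not pass the threshold. Of the 31 genes, 5 were higher (Lamc3, Itgb7, Itga10, Itgb4 and Lama1) and 5 lower (Lamc1, Lamb1, Lama3, Itga1 and Itgav), 32.3% in all beside 51.4% of all genes and 54.4% of genes brighter than the median probe set. Among the 23 integrin genes 3 were higher and 2 lower, or 21.7%. Among the 8 laminin genes 2 were higher and 3 lower, or 62.5%. That contrast depended on the scaling: 5 integrins were higher and none lower with cyclic loess, beside 1 laminin higher and 2 lower, and with repeated quantile normalisation 10 integrins were higher and none lower, beside 2 laminins higher and 1 lower. After cyclic loess 6 member genes were higher and 2 lower, and after renewed quantile normalisation 12 were higher and 1 lower. The groups did not overlap for 12 of the 31 genes, beside 61.0% of all genes. By probe set, 12 of the 59 rose and 10 fell, or 37.3% beside 47.1% of all probe sets, and 25 of the 59 had groups without overlap, beside 57.3% of all. The changes were small throughout: they ran from -0.59 to 0.48 on the log2 scale, with a median of -0.023 beside 0.0067 over all genes. The member median was above that of all genes with cyclic loess (0.11 beside 0.027) and with repeated quantile normalisation (0.13 beside 0.040).

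**Figure D1:**
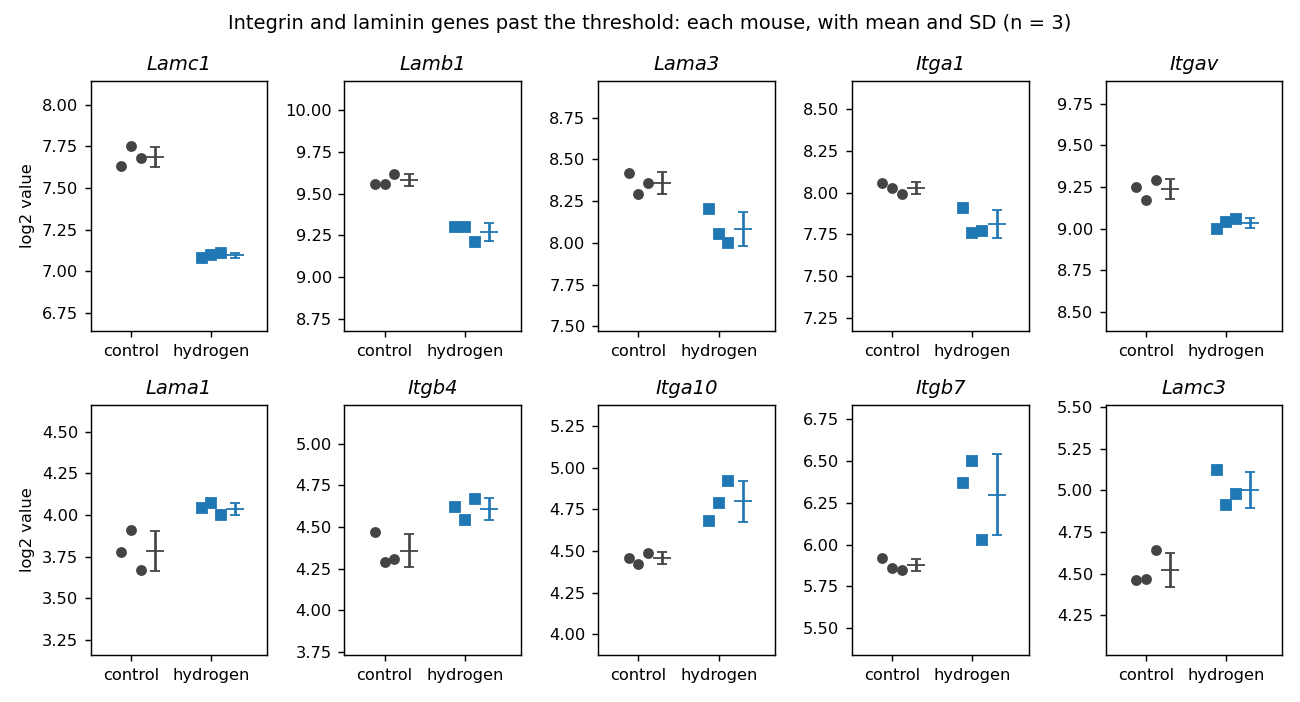
Log2 values of the 10 integrin and laminin genes past the threshold (adjusted p under 0.05, limma), with 3 control mice as circles, 3 hydrogen mice as squares, and the mean and SD of each group as a bar; each vertical axis spans the same range. The groups do not overlap in any panel, and Lamc1 shows the largest step, from 7.69 to 7.10.

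Lamc1 encodes the gamma 1 chain, which most laminin trimers contain and which carries the binding site for nidogen. Its log2 values were 7.63, 7.75 and 7.68 in the controls and 7.08, 7.10 and 7.11 in the hydrogen mice. All hydrogen mice lay below all controls, and the 3 hydrogen values differed by less than the 3 control values did. The change was -0.59 (SE 0.055, 95% interval -0.72 to -0.46, limma adjusted p = 0.000305), the largest among the member genes. The second Lamc1 probe set, dimmer at a mean of 5.05, read 5.62, 5.43 and 5.15 in controls and 4.75, 4.69 and 4.63 in hydrogen mice, a change of -0.71 (adjusted p = 0.00152). The decile of brightness that holds the first probe set had a median change of -0.23 over all probe sets, and that of the second 0.073. With cyclic loess Lamc1 was at -0.39 (adjusted p = 0.00171), and with quantile normalisation repeated at -0.36 (adjusted p = 0.00231).

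Lamb1 encodes the beta 1 chain, the usual partner of gamma 1. Its brightest probe set read 9.56, 9.56 and 9.62 in the controls and 9.30, 9.30 and 9.21 in the hydrogen mice, without overlap. The change was -0.31 (SE 0.055, limma adjusted p = 0.0028). A further 2 of its 4 probe sets fell as well, by 0.34 and by 0.41 on the log2 scale, and the dimmest, at a mean of 3.85, was at -0.060 (adjusted p = 0.48). The change of the brightest Lamb1 probe set was -0.17 with cyclic loess (adjusted p = 0.0486), and the next one was then at -0.14 and no longer passed (adjusted p = 0.103). With quantile normalisation repeated, the brightest was at -0.16 and did not pass (adjusted p = 0.0541). The related beta 2 chain gene Lamb2, prominent in vessel walls and at the neuromuscular junction, was at -0.050 (adjusted p = 0.487, 95% interval -0.18 to 0.078).

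The promoter of Lamb1 is shown because that chain fell in 3 of its 4 probe sets, and those of Itgb7 and Itga4 because Itgb7 had the largest rise among integrins while Itga4, its main partner chain, did not pass. Each is the stretch of 250 bases before the annotated gene start in RefSeq on build GRCm38.p6, written 5′ to 3′ on the gene's strand. Capitals mark the GC box GGGCGG and the CCAAT box CCAAT, on either strand.
Lamb1, chr12:31265043-31265292, plus strand: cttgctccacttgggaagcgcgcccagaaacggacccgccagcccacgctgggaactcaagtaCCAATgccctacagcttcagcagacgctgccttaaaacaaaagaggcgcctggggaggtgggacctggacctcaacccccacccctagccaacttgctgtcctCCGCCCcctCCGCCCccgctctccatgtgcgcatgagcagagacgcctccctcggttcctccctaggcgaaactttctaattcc
Itgb7, chr15:102231936-102232185, minus strand: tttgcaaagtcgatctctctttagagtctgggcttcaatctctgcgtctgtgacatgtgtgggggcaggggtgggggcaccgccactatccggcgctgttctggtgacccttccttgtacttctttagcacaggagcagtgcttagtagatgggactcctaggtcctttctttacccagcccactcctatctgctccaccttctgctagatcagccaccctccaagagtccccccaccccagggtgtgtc
Itga4, chr2:79255176-79255425, plus strand: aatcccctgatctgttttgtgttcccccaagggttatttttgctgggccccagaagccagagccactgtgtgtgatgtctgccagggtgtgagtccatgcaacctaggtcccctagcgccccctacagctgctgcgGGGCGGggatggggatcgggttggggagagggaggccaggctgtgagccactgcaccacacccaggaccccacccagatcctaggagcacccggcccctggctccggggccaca

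The Lamb1 stretch held 2 GC boxes and 1 CCAAT box, the Itga4 stretch 1 GC box, and the Itgb7 stretch no match to either motif. Over all 32851 promoters of the same length in the RefSeq table, 32.7% held GGGCGG and 33.8% held CCAAT. The table has entries for 20 of the 31 member genes, with 23 promoters in all. Of these 23, 8 held GGGCGG and 3 held CCAAT. The TATA box TATAAA was found in none of the 23, beside 12.4% of all promoters. The core GAGGAA, bound by the myeloid and lymphoid factor PU.1, was found in 11 of the 23, beside 23.3% of all promoters. These are letter matches on either strand and describe sequence only.

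The gamma 3 chain gene Lamc3 rose, opposite to Lamc1. Gamma 3 is a minor laminin chain with expression in nerve, skin and reproductive tissue. Lamc3 read 4.46, 4.47 and 4.64 in the controls and 5.12, 4.91 and 4.98 in the hydrogen mice, without overlap. The change was 0.48 (SE 0.076, limma adjusted p = 0.00176) at a brightness near the median probe set, in a decile with a median change of 0.15. Its second probe set rose by 0.33 (adjusted p = 0.0293). After cyclic loess the change was 0.36 for the first probe set (adjusted p = 0.00776) and 0.18 for the second, which no longer passed (adjusted p = 0.177).

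Among the laminin alpha chains, Lama3 encodes the epithelial alpha 3 chain, which anchors cells through integrin alpha 6 beta 4 in hemidesmosomes. Lama3 read 8.42, 8.29 and 8.36 in the controls and 8.20, 8.05 and 8.0 in the hydrogen mice, a change of -0.27 (SE 0.069, limma adjusted p = 0.0127). A dim second probe set of Lama3 rose by 0.22 (adjusted p = 0.0297). Neither scaling kept the Lama3 call, at -0.083 with cyclic loess (adjusted p = 0.373) and -0.056 with repeated quantile normalisation (adjusted p = 0.556), and the change was -0.025 as the mean of both probe sets (adjusted p = 0.661). The beta 3 chain gene Lamb3, which assembles with alpha 3, was at -0.15 and did not pass (limma adjusted p = 0.0761), although its groups did not overlap. Its decile had a median change of -0.18. The sign of Lamb3 turned with cyclic loess (0.034, adjusted p = 0.694) and with repeated quantile normalisation (0.059, adjusted p = 0.488).

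Lama1, the alpha 1 chain of embryonic basement membranes, was dim in these lungs. It read 3.78, 3.91 and 3.67 in the controls and 4.04, 4.07 and 4.0 in the hydrogen mice, a change of 0.25 (SE 0.070, limma adjusted p = 0.019) in a decile with a median change of 0.14. With cyclic loess it was at 0.13 (adjusted p = 0.173), as it was with repeated quantile normalisation (adjusted p = 0.184), and with arrays centred on their medians at 0.16 (adjusted p = 0.0958). Leaving out control 3, hydrogen mouse 1 or hydrogen mouse 2 also ended the call (adjusted p = 0.051, 0.0508 and 0.0638). Lama2, the alpha 2 chain of muscle and mesenchyme, read 7.34, 7.38 and 7.38 in controls and 7.29, 7.18 and 7.31 in hydrogen mice. Its groups did not overlap, yet the change of -0.11 did not pass (adjusted p = 0.156).

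Of the 7 integrin beta chains, Itgb7 and Itgb4 rose and the other 5 did not pass. Itgb7 encodes the beta 7 chain, which pairs with alpha 4 or alpha E on lymphocytes and binds Madcam1, Vcam1 or E-cadherin. It read 5.92, 5.86 and 5.85 in the controls and 6.37, 6.50 and 6.03 in the hydrogen mice. All hydrogen mice were above all controls, and hydrogen mouse 3 lay closest to them. The change was 0.42 (SE 0.11, limma adjusted p = 0.0137), and it was 0.52 with cyclic loess (adjusted p = 0.00783) and 0.54 with repeated quantile normalisation (adjusted p = 0.00879). The decile of this probe set had a median change of -0.053.

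Itgb4 encodes the beta 4 chain of hemidesmosomes, the laminin receptor of basal and alveolar epithelium. It was dim, with 4.47, 4.29 and 4.31 in the controls and 4.62, 4.54 and 4.67 in the hydrogen mice. The change was 0.25 (SE 0.068, limma adjusted p = 0.0162), in a decile with a median change of 0.15. Itgb4 did not pass with cyclic loess (0.11, adjusted p = 0.269), repeated quantile normalisation (0.14, adjusted p = 0.159) or median centring (0.16, adjusted p = 0.0796). Leaving out control 2 or hydrogen mouse 3 ended the call too (adjusted p = 0.0567 and 0.0501). Itgb6, whose product pairs with alpha v on epithelium and activates TGF-beta, read 5.31, 5.14 and 5.26 in controls and 5.29, 5.12 and 4.62 in hydrogen mice. Hydrogen mouse 3 stood apart there, and the change of -0.23 had a 95% interval from -0.57 to 0.12 (adjusted p = 0.245).

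The shared beta chains did not pass. Itgb1 encodes beta 1, the partner of most collagen, laminin and fibronectin receptors, and read 8.94, 8.65 and 8.89 in controls and 9.0, 8.91 and 8.67 in hydrogen mice. The groups overlapped, with a change of 0.033 (95% interval -0.20 to 0.27, limma adjusted p = 0.814). Its second bright probe set was at 0.14 (adjusted p = 0.266), but reached 0.32 and passed with cyclic loess (adjusted p = 0.0344). Itgb2, the chain of all leukocyte-specific beta 2 integrins, read 8.05, 8.07 and 8.21 in controls and 8.15, 8.15 and 8.14 in hydrogen mice, a change of 0.037 (adjusted p = 0.642). After cyclic loess Itgb2 was at 0.23 and passed (adjusted p = 0.0212). Itgb3, the chain of platelets and activated endothelium, was at -0.19 (adjusted p = 0.109) with 6.18, 6.36 and 6.38 against 6.05, 6.29 and 6.0. Itgb5, which pairs with alpha v, was at -0.030 (adjusted p = 0.689).

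Among the 16 integrin alpha chains 1 rose and 2 fell. The 3 collagen-receptor chains measured went different ways. Itga1, the alpha 1 chain of capillary endothelium, mural cells and memory T cells, read 8.06, 8.03 and 7.99 in the controls and 7.91, 7.76 and 7.77 in the hydrogen mice, a change of -0.21 (SE 0.061, limma adjusted p = 0.0208). With cyclic loess it was at -0.016 (adjusted p = 0.86), and with repeated quantile normalisation its sign turned, to 0.013 (adjusted p = 0.881). Leaving out any 1 of controls 1 and 2 and hydrogen mice 2 and 3 ended the call as well (adjusted p = 0.0603, 0.0545, 0.0764 and 0.0609). Itga10, the cartilage collagen receptor chain, was dim and read 4.46, 4.42 and 4.49 in controls and 4.68, 4.79 and 4.92 in hydrogen mice. Its change was 0.34 (SE 0.070, adjusted p = 0.00525), or 0.20 after cyclic loess (adjusted p = 0.0566). Itga2, of epithelium and platelets, was at 0.093 (adjusted p = 0.347).

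None of the 3 laminin-receptor alpha chains passed with their brightest probe sets in limma (1 had an unadjusted p under 0.05), but Itga3 and Itga6 had other probe sets that did. Itga3 encodes alpha 3, the laminin receptor chain of alveolar and airway epithelium. Its brightest probe set read 6.74, 6.82 and 6.95 in controls and 6.92, 7.11 and 7.05 in hydrogen mice, a change of 0.19 (adjusted p = 0.0672), while its other 2 probe sets rose by 0.33 (adjusted p = 0.00236) and 0.29 (adjusted p = 0.0136). After cyclic loess all 3 Itga3 probe sets passed, with 0.38, 0.35 and 0.30. Itga6, the alpha 6 chain of epithelial and endothelial cells, has 2 probe sets of nearly equal brightness. The brighter read 7.77, 7.77 and 7.74 against 7.72, 7.75 and 7.74 (-0.023, adjusted p = 0.726), and the other 7.92, 7.81 and 7.76 against 7.51, 7.39 and 7.32 (-0.42, adjusted p = 0.00209). After cyclic loess the first was at 0.18 and passed upward (adjusted p = 0.0258), and the second was at -0.22 and passed downward (adjusted p = 0.0369). Itga7, the muscle laminin receptor chain, was dim at a control mean of 4.17 and a change of -0.087 (adjusted p = 0.466).

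Of the 4 chains that recognise the RGD sequence, Itgav fell and the others did not pass. Itgav, the alpha v chain that activates latent TGF-beta, read 9.25, 9.17 and 9.29 in controls and 9.0, 9.04 and 9.06 in hydrogen mice, a change of -0.20 (SE 0.056, limma adjusted p = 0.0181). Its 4 further probe sets were dim, and 1 of them rose by 0.25 (adjusted p = 0.0267). Itgav was at -0.047 after cyclic loess (adjusted p = 0.538) and 0.043 as the mean of its probe sets (adjusted p = 0.504). Leaving out control 3, hydrogen mouse 1 or hydrogen mouse 2 ended the Itgav call (adjusted p = 0.0512, 0.0599 and 0.051). Itga8, a marker of alveolar fibroblasts and the brightest member, read 11.01, 10.89 and 10.83 in controls and 11.09, 10.94 and 11.05 in hydrogen mice, with a change of 0.12 (95% interval -0.040 to 0.27, adjusted p = 0.192). Itga5, the fibronectin receptor chain, was dim at -0.10 (adjusted p = 0.394), and Itga2b, the platelet fibrinogen receptor chain, was at 0.12 (adjusted p = 0.382).

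With their brightest probe sets, none of the 6 remaining alpha chains (Itga4, Itga9, Itgae, Itgal, Itgam and Itgax) passed in limma. None of these probe sets had an unadjusted p under 0.05, and their changes ran from -0.17 to 0.12. Other probe sets of Itga9 passed, as given below. Itgax, the CD11c chain of alveolar macrophages and dendritic cells, read 7.29, 7.43 and 7.30 in controls and 7.21, 6.99 and 7.31 in hydrogen mice, with hydrogen mouse 2 the lowest (-0.17, adjusted p = 0.14). Itgal, the CD11a chain of lymphocytes, was at -0.023 (adjusted p = 0.781), and Itgam, the CD11b chain of myeloid cells, was dim at 0.12 (adjusted p = 0.222). Itga4, the chain that pairs with beta 1 or beta 7, was at 0.053 (adjusted p = 0.441), but passed at 0.23 with cyclic loess (adjusted p = 0.0132).

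**Figure D2:**
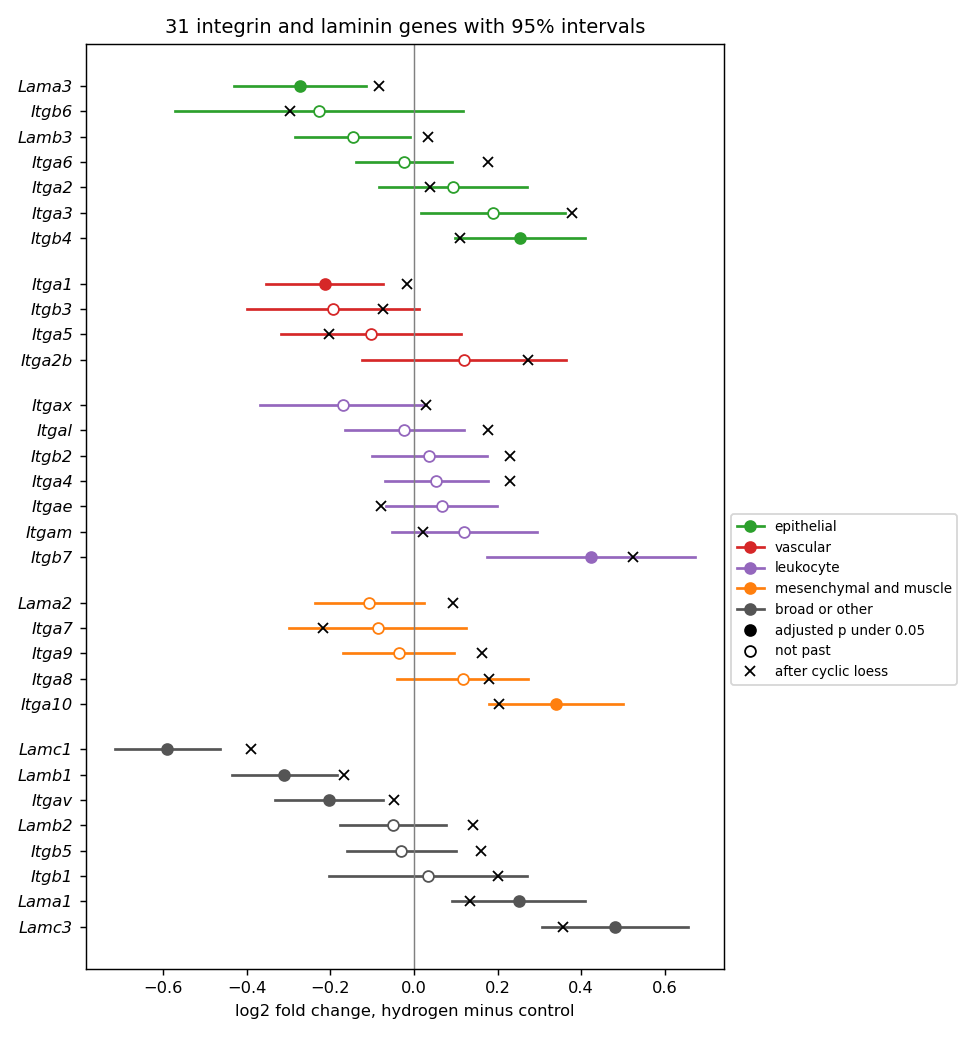
Log2 fold change (hydrogen minus control, 3 mice each) of the 31 integrin and laminin genes, grouped by chain class, with unadjusted 95% intervals from limma; filled circles passed the threshold and crosses give the change after cyclic loess. Values run from -0.59 for Lamc1 to 0.48 for Lamc3, and the intervals of the 21 genes that did not pass lie between -0.57 and 0.36.

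The epithelial, vascular and leukocyte chains were set beside each other, with classes assigned from general knowledge of where each chain is made. The counts below stand beside 25.5% of all genes higher and 25.9% lower. Among 7 epithelial chains Itgb4 rose, Lama3 fell and 5 did not pass, with a median change of -0.023. Among 4 vascular chains Itga1 fell and Itgb3, Itga5 and Itga2b did not pass, with a median of -0.15. This class includes chains of platelets (Itga2b, and Itgb3 with endothelium) and the dim Itga5, so its median does not describe vessel walls alone. Among 7 leukocyte chains Itgb7 rose and 6 did not pass, with a median of 0.053. The difference between the classes was not tested. Without control 3 the leukocyte median was 0.087. After cyclic loess the medians were 0.039, -0.045 and 0.18, with 2 epithelial chains and 3 leukocyte chains higher, no vascular chain called, and none of the 3 classes with a chain called lower.

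Deviations from the control mean showed how far single mice agreed. The median over the vascular chains was -0.063, -0.10 and -0.18 in hydrogen mice 1, 2 and 3, against 0.018 to 0.053 in the controls. For the leukocyte chains it was 0.020, 0.047 and 0.030, against -0.047 to 0.027 in the controls, so those ranges overlapped. For the epithelial chains it was 0.040, -0.010 and -0.020, which also overlapped the controls (-0.017 to 0.030). Each chain was also given the median change of all probe sets in its decile of brightness. The class median of these decile changes was -0.18 for the vascular chains and -0.13 for both the leukocyte and the epithelial chains. The 5 mesenchymal and muscle chains had a median change of -0.037, with Itga10 as the 1 gene that passed. The sign of that median turned with cyclic loess (0.16, with no gene passing), repeated quantile normalisation (0.16), averaged probe sets (0.041) and without control 3 (0.027). The 8 broad or other chains, Itgb1, Itgb5, Itgav, Lama1, Lamb1, Lamb2, Lamc1 and Lamc3, had 2 higher and 3 lower, with a median of -0.040. With cyclic loess 1 was higher and 2 lower at a median of 0.14, and with repeated quantile normalisation 3 were higher and 1 lower at a median of 0.15. Without control 3, hydrogen mouse 1 or hydrogen mouse 2 the number higher was 1.

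Markers of the cells that make these chains moved as well, and their part in the changes of the chains was not tested. In whole lung, fewer cells of a type and less RNA per cell cannot be told apart. Levels of each marker list are given as the sum of its linear array values over its measured genes, on a scale with no true zero. Beside the leukocyte chains, 2 of 5 pan-leukocyte markers rose, Ptprc by 0.45 and Cd52 by 0.29, and their sum was 2050 to 2280 in controls and 2530 to 2720 in hydrogen mice. T and NK cell markers had 3 higher (among them Cd8a at 0.54 and Cd4 at 0.34) and 1 lower of 8, with sums of 391 to 441 and 436 to 491, and B cell markers had 2 higher of 4 (291 to 343 and 347 to 456). Macrophage and dendritic markers had 2 higher and 1 lower of 10 (1380 to 2000 and 1420 to 1640). No neutrophil marker of 5 passed in limma, with 2 at an unadjusted p under 0.05 (776 to 1170 and 1120 to 1690). With cyclic loess 4 pan-leukocyte, 4 T and NK cell, 3 B cell and 3 neutrophil markers were higher.

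Beside the vascular chains, 3 of 10 endothelial markers fell, among them Car4 at -0.57 and Pecam1 at -0.25. The other 7 did not pass, and the list median was -0.005, or 0.12 with cyclic loess. The endothelial sum was 14100 to 14400 in controls and 11900 to 13700 in hydrogen mice. Platelet markers had 2 higher and 3 lower of 7, with Ppbp at -1.11, Treml1 at 0.39 and a list median of 0.013. The platelet sum was 721 to 1010 against 568 to 646. Smooth muscle and pericyte markers had 1 higher and 4 lower of 7, with Myh11 at -0.71 and Cox4i2 at 0.52 (2290 to 2560 and 1680 to 2110). Beside the epithelial chains, 4 of 7 alveolar type 1 markers fell (17000 to 17400 and 15800 to 16200) and 1 of 6 alveolar type 2 markers, Abca3, rose (20700 to 21500 and 21300 to 21400). Airway basal markers, which were dim, had 4 higher of 5 (89.7 to 95 and 108 to 110), and 3 of 7 secretory and ciliated markers fell (20400 to 21500 and 18900 to 19800). Beside Lama2 and Itga7, all 9 cardiac muscle markers measured fell, with a median of -1.89 and sums of 5990 to 7480 in controls and 770 to 2990 in hydrogen mice. Skeletal muscle markers had 2 higher and 2 lower of 6 (288 to 350 and 151 to 220), and fibroblast markers had 1 higher and 4 lower of 9 (9510 to 9650 and 9080 to 9630). With cyclic loess 2 alveolar type 1 markers were lower and 1 higher, 2 endothelial markers were lower, and 2 smooth muscle and pericyte markers were lower. With repeated quantile normalisation 1 endothelial marker and 1 smooth muscle and pericyte marker were lower. The shares of all genes, 25.5% higher and 25.9% lower, are the background for the marker counts as well, but direction followed brightness. The airway basal and skeletal muscle lists had median brightness percentiles of 34.7 and 38.3. Of genes up to the median probe set, 41.0% rose and 5.28% fell. The other marker lists had medians above it, and of such brighter genes 16.4% rose and 37.9% fell.

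The direction of the calls followed brightness among the member probe sets as it did over all probe sets. Among the 25 dim ones (up to the median of all probe sets) 9 rose and 2 fell, beside 32.0% and 7.31% of all dim probe sets. Among the 34 brighter ones 3 rose and 8 fell, beside 16.7% and 38.2% of all brighter probe sets. Of the 8 genes represented by a dim probe set, Lamc3, Itga10, Itgb4 and Lama1 were higher and none lower. Of the 23 brighter genes, only Itgb7 was higher and 5 were lower. The dim members that fell, against the direction of their deciles, were probe sets of Itga9 (-0.26) and Lamb1 (-0.41). The brighter probe sets that rose were that of Itgb7 and 2 of Itga3.

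**Figure D3:**
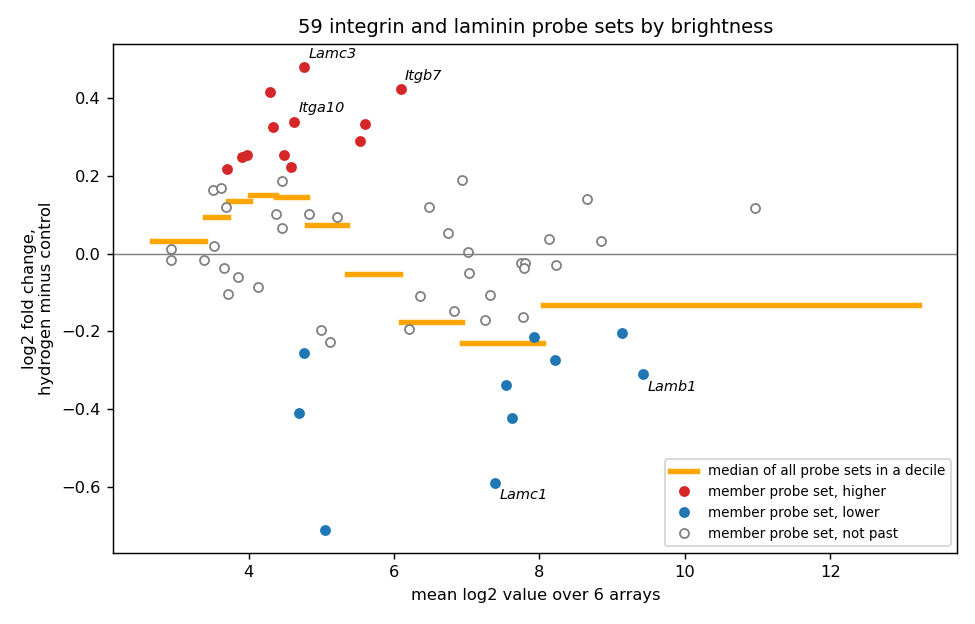
Log2 fold change of the 59 integrin and laminin probe sets (hydrogen minus control) against their mean log2 value over 6 arrays, with the median change of all 45037 probe sets in each decile of brightness as orange lines. The decile medians run from 0.15 among dim probe sets to -0.23 among bright ones; the labelled Lamc1 probe set (-0.59) lies well below its decile and Itgb7 (0.42) well above.

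Of the 15 member genes with several probe sets, 7 had probe sets that differed in their call. Itgav, Lama3 and Itga9 had probe sets past the threshold in both directions. Itga9, whose product binds tenascin and osteopontin, had a bright probe set at -0.037 (adjusted p = 0.63), a dim one at -0.26 (adjusted p = 0.0118) and a dimmer one at 0.42 (limma adjusted p = 0.000922). The dimmest read 4.08, 4.09 and 4.10 in controls and 4.58, 4.49 and 4.45 in hydrogen mice, without overlap. Itgb6 had a dim probe set that rose by 0.22 (adjusted p = 0.012) beside the brighter one at -0.23. Itga3, Itga6 and Lamb1, described above, differed in whether they passed. Which transcripts each probe set detects was not examined, since probe sequences were not used here.

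Genes that work with these chains were taken from lists of adaptors, basement membrane partners and ligands. Among 28 genes for integrin-binding adaptors and kinases 14 fell and 4 rose, or 64.3% past the threshold, with a median change of -0.19. They were bright, with a median brightness percentile of 87.8, and of genes brighter than the median probe set 37.9% fell and 16.4% rose. With cyclic loess 8 adaptors were lower and 5 higher, with a median of -0.067, and without hydrogen mouse 2 the number higher was 2. Sharpin, which holds beta 1 integrins inactive, read 8.08, 8.12 and 8.01 in controls and 7.48, 7.58 and 7.53 in hydrogen mice (-0.54, limma adjusted p = 0.00042). The mean of its probe sets was at -0.27. Cib1, which binds the cytoplasmic tail of the platelet alpha chain, was at -0.49 (adjusted p = 0.000547), and Tns1, a tensin that links beta tails to actin, was at -0.59 (adjusted p = 0.000592) or -0.31 without probe sets that can match several transcripts. Pxn, the scaffold paxillin, was at -0.47 (adjusted p = 0.000587) but at -0.12 and not past as the mean of its probe sets (adjusted p = 0.0992). Tln1, the talin that activates integrins, read 8.55, 8.67 and 8.67 in controls and 8.07, 8.32 and 8.14 in hydrogen mice (-0.45, adjusted p = 0.00222), while Fermt3, the kindlin of blood cells, rose by 0.42 (adjusted p = 0.00909). With cyclic loess Sharpin, Cib1, Pxn, Tns1 and Tln1 were at -0.34, -0.30, -0.27, -0.47 and -0.27 and all passed. Tln1 and Fermt3 were named after their values were seen.

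Among 24 other basement membrane and laminin-binding genes 4 rose, 5 fell and 15 did not pass, with a median of -0.015. With cyclic loess 6 were higher and 4 lower, at a median of 0.082, and with repeated quantile normalisation the same counts stood at a median of 0.094. Without control 3 or hydrogen mouse 1 the number higher was 2, and without hydrogen mouse 2 the number lower was 3. Hspg2, which encodes the heparan sulfate proteoglycan perlecan, rose from 7.23, 7.32 and 7.30 to 8.23, 8.28 and 8.19. This change of 0.95 in its brightest probe set (SE 0.056, limma adjusted p = 0.00015) was larger than that of any member gene. As the mean of its 2 probe sets the change was 0.40 (limma adjusted p = 0.00208), so the other probe set did not share the rise. Nid1, which encodes the nidogen that ties laminin gamma 1 to type IV collagen, fell from 9.55, 9.74 and 9.65 to 9.22, 9.23 and 9.26 (-0.41, adjusted p = 0.00151), or by 0.27 with cyclic loess and by 0.24 as the mean of its probe sets. Dst, the hemidesmosome and cytoskeleton linker dystonin, was at -0.56 (adjusted p = 0.000305) or -0.24 as the mean of its probe sets. Col4a6, a dim type IV collagen chain, rose by 0.41 (adjusted p = 0.00383), or 0.27 with cyclic loess. The brighter chain genes Col4a1, Col4a2, Col4a3, Col4a4 and Col4a5 did not pass, at 0.080, -0.020, -0.15, -0.010 and 0.093. They were named after their values were seen.

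Among 22 other integrin ligands 8 rose and 4 fell, or 5 and 2 after cyclic loess, with a median of 0.023. The number higher was 4 without control 1, control 2, hydrogen mouse 1 or hydrogen mouse 2. Vcam1 and Madcam1, counter-receptors of the alpha 4 beta 7 integrin, rose. Cdh1, which encodes the further beta 7 ligand E-cadherin, was at 0.020 and did not pass (limma adjusted p = 0.783). The 4 ligand genes that fell were Vtn (-0.45), Fn1 (-0.29), Ltbp1 (-0.29) and Vwf (-0.18). Cdh1 and these 4 were named after their values were seen. Vcam1, an adhesion molecule of activated endothelium, read 6.56, 6.53 and 6.37 in controls and 6.83, 6.95 and 6.94 in hydrogen mice (0.42, limma adjusted p = 0.00202; 0.59 after cyclic loess). Madcam1, the mucosal addressin, rose by 0.37 (adjusted p = 0.00154) at a dim level, from a control mean of 3.35. Adam15, a disintegrin metalloprotease, rose by 0.32 (adjusted p = 0.00905; 0.51 with cyclic loess), and the dim fibrinogen chain gene Fgb by 0.38 (adjusted p = 0.00485). These lists' shares past the threshold are to be read beside 51.4% of all genes.

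**Figure D4:**
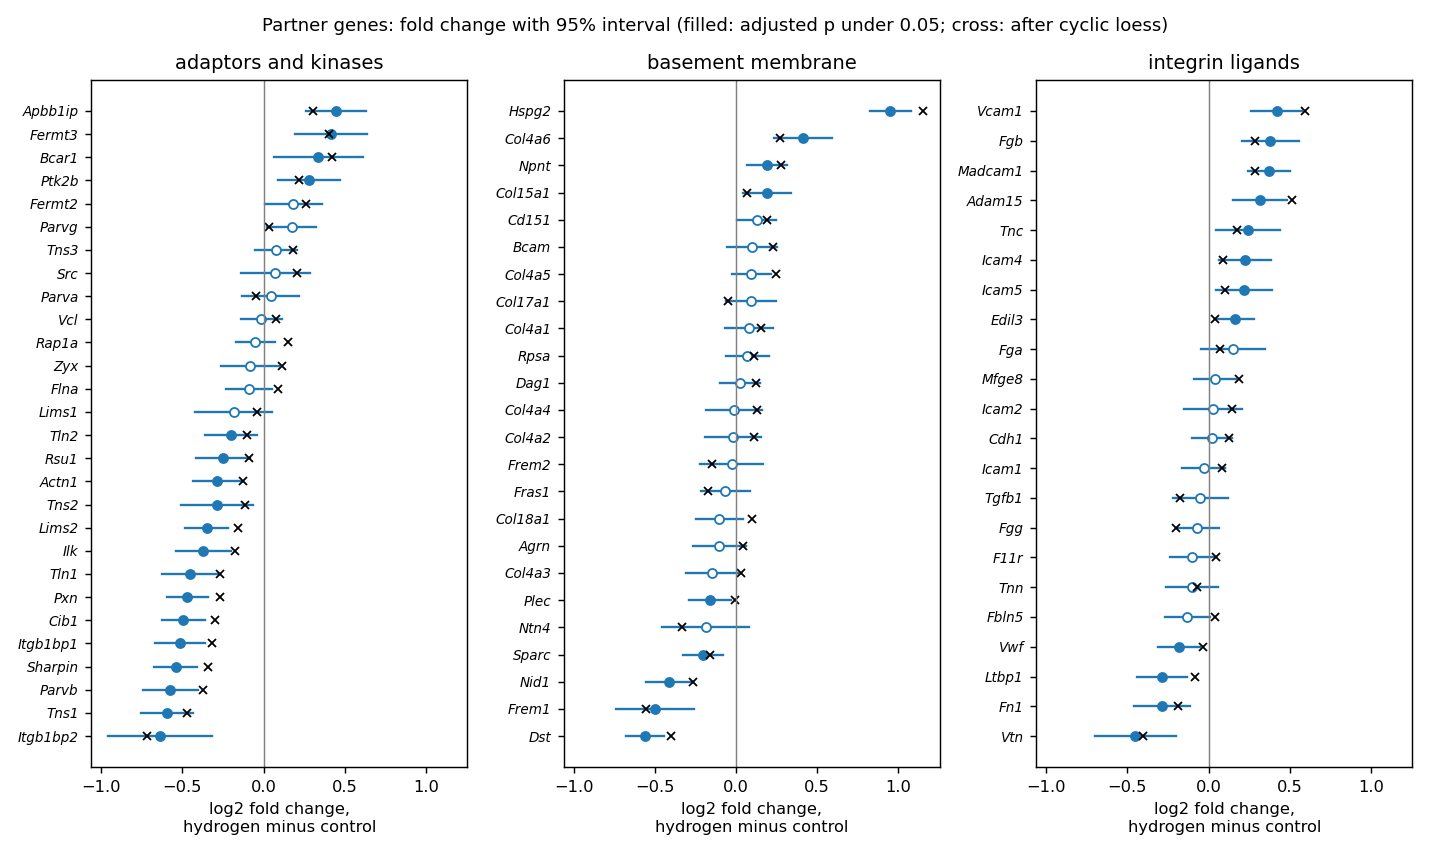
Log2 fold change (hydrogen minus control, 3 mice each) of the measured adaptors and kinases, basement membrane genes and integrin ligands, with unadjusted 95% intervals from limma; filled circles passed the threshold and crosses give the change after cyclic loess. Among the adaptors 14 were lower and 4 higher of 28, beside 37.9% lower and 16.4% higher of genes brighter than the median probe set. With cyclic loess 8 adaptors were lower and 5 higher. Hspg2, by its brightest probe set, has the largest change shown, at 0.95.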

How the data were processed

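RNA from 6 lungs, 1 per array, was hybridised to Affymetrix mouse arrays. The authors deposited log2 values per probe set; per the submitters' processing notes they used RMA and Affymetrix Expression Console, and whether all arrays were normalised in 1 run is not given in the sources used here. RMA's quantile step can hide or create small shifts shared by many probe sets. Of 45141 probe sets, 104 control probe sets were left out. The platform annotation names 1 gene for 28898 of the others, and all 31 member symbols matched RefSeq.

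Groups follow the sample titles, and each mouse is 1 replicate. All 45037 probe sets were fitted with limma 3.58.1 in R 4.3.3 (lmFit, eBayes without trend), with Benjamini-Hochberg adjustment. On simulated arrays of 45037 probe sets limma recovered 55 of 100 changes of 0.5 and 94 of 100 of 1, and called 10 of 44837 unchanged ones. The simulated arrays had independent noise, few changed probe sets and no trend with brightness, so these rates need not hold for the measured arrays. The named genes were members past the threshold with a change of at least 0.4, the 2 smallest p per class, Itgb1, Itgb2, Itgb3, Itgb4, Itga8 and Lamc1 whatever their values, members whose probe sets differed in the call, and the 4 smallest p per partner list; further members are named in their groups. Of marker lists, up to 2 genes with the smallest p were named. Partner and marker lists had 82 and 117 entries, of which 74 and 105 were measured. The members and lists were chosen with earlier results of these data known. Alternatives were renewed quantile normalisation, cyclic loess, median centring, a replicate block, array weights, a trended robust prior, leaving out dim or shared probe sets, gene-level fits, and leaving out each array. Figures used matplotlib 3.10.9 in Python 3.11.15.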

Additional observations from a re-analysis of the deposited data

How the results depend on the processing

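Scaling changed many calls. The counts of member genes higher and lower were 5 and 5 in the reported fit, 12 and 1 with quantile normalisation repeated, 6 and 2 with cyclic loess, and 3 and 9 with arrays centred on their medians. Without dim probe sets 1 gene was higher, but only 23 of the 31 genes had a probe set left. Probe set counts were 12 higher and 10 lower; 4 were lower after quantile normalisation, 6 after cyclic loess, 5 were higher after centring and 3 without dim probe sets. Leaving out 1 array gave 8 to 12 probe sets higher and 8 to 9 lower. Medians of the epithelial, vascular and leukocyte chains were 0.076, -0.019 and 0.21 after quantile normalisation, 0.039, -0.045 and 0.18 with cyclic loess, and -0.11, -0.24 and -0.037 after centring. The epithelial median was -0.085 without dim probe sets and the vascular one -0.074 when probe sets of a gene were averaged. Leaving out 1 array moved the vascular median between -0.19 and -0.10 and the leukocyte median between 0.030 and 0.087. Among genes past the threshold in the reported fit or the alternative, values turned from below to above 0 with quantile normalisation for Lamb2 (0.18), Itgb5 (0.19), Itga9 (0.19), Itga6 (0.20), Itgal (0.21) and Itga1 (0.013), with cyclic loess for Itga6 (0.18) and with averaged probe sets for Itgav (0.043). Of the 10 called genes, Lamc1, Lamc3 and Itgb7 (3) kept their call in every alternative in which they had a value. Of the 21 others, 13 were called in some alternative. With the replicate number as a block the member counts remained 5 higher and 5 lower. Deviations of same-numbered mice correlated at 0.078, 0.029 and -0.11, and in both groups mice 2 and 3 correlated best with the other's number. No pairing by number was shown, and with 3 mice a group this check cannot exclude one. Partner list counts moved by over 1.5 times in several settings: adaptors lower were 8 rather than 14 after quantile normalisation or cyclic loess, and ligands higher were 4 rather than 8 with the block. The cause of these differences was not tested. The dim level of 8 genes limits what can be said of them.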
